A study of Homo sapiens with 38 samples.

Results

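Followed here are 32 genes of the amino acid stress programme run by the transcription factor ATF4. They are ATF4 itself and 5 partner factors, 4 stress-induced brakes, 7 enzymes of serine, asparagine and one-carbon metabolism, 3 amino acid transporters, 2 secreted or surface proteins, and 10 genes of tRNA export and charging. They were taken by gene symbol from the deposited gene table, which holds 43412 gene rows, and each symbol was found once. The cells were H9, an established human embryonic stem cell line, in which WNT signalling was switched on in 3 ways. CHIR99021, an inhibitor of the kinase GSK3, was given at 10 µM and sampled at 0, 8, 16, 24, 48 and 72 h. Recombinant Wnt3a, the secreted ligand, was given at 240 ng/ml and sampled at 0, 8, 24, 48, 72, 96 and 120 h. In the bcat arm, H9 carrying a stably integrated, doxycycline-driven beta-catenin that lacks its degradation signal (deltaN90) received 1 µg/ml doxycycline and was sampled at 0, 8, 16, 24, 48 and 72 h. The labels do not say whether that line is 1 clone, and no doxycycline-treated H9 without the construct was among the groups. All cultures were grown in mTeSR1, seeded at confluency on Matrigel, and moved 16 h later into RPMI1640 with B27 lacking vitamin A together with the agent, with fresh medium every 24 h. The 0 h cultures were collected untreated, and no culture received the new medium alone, so treatment, medium and elapsed time cannot be told apart in any change from 0 h. Each of the 19 groups had 2 libraries, labelled as biological replicates, so p-values measure the spread between these libraries. The columns of both Wnt3a 72 h libraries were identical and counted as 1.

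ATF4 is made when a cell runs short of amino acids or its protein folding is under strain. Kinases then phosphorylate the initiation factor eIF2alpha, most translation slows, and the upstream reading frames that normally hold back ATF4 translation are bypassed. ATF4, often paired with a C/EBP partner, then switches on amino acid uptake, serine and asparagine synthesis, tRNA charging and, under lasting stress, DDIT3 and CHAC1. Because much of this control is on translation, the RNA level of ATF4 measured here is not a measure of its protein.

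Depth ran from 2.45 to 65.7 M estimated counts, with a median of 18.99 M, and every member passed the filter on low counts. The lowest count of a member in any library was 6, for DDIT3 in Wnt3a 0 h replicate 1. In the bcat arm cytosolic ribosomal RNA made up 60.3% of counts at 24 h replicate 1 and 60.2% at 48 h replicate 2, 34% at 0 h replicate 1 against 5.77% in its partner, and 5.77 to 27.2% in the other 9 libraries, and Wnt3a 0 h replicate 1 was the shallowest library. These 4 libraries are called the libraries in doubt. CHIR 0 h replicate 1, at 18.8% ribosomal RNA against 7.85% in its partner, was not among them but was left out singly. The stem cell label was checked against markers: POU5F1, a defining pluripotency factor, stood at 985 and 974 CPM (counts scaled to a common library size) in the CHIR99021 arm, 899 and 991 in the Wnt3a arm and 995 and 1237 in the bcat arm. Of 4 neural markers, PAX6 had no count in any 0 h library, but the others were not all absent. The 4 summed to 239 and 238 CPM in the CHIR99021 arm, 230 and 291 in the Wnt3a arm and 279 and 300 in the bcat arm. Most of that was NES, at 197 and 198, 194 and 250, and 246 and 264 CPM in the same order. In bulk RNA, fewer cells of a type and less RNA per cell cannot be told apart.

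ATF4 and its C/EBP partners bind a composite element with the core TGATGNAA, or TTNCATCA on the other strand. The promoter windows of RefSeq on GRCh38.p14, from 250 bases before to 50 bases after a start, were matched to 27 of the 32 members, and the core was found in a window of 10 of them: ATF3, CEBPG, CHAC1, ASNS, SLC3A2, AARS, GARS, MARS, NARS and IARS. Over all genes with a window, 4.46% held it, and so did 3.62% of all 35116 windows. The narrower form TGATGCAA, or TTGCATCA, was held by 6 members, CEBPG, CHAC1, AARS, MARS, NARS and IARS, and by 1.08% of genes. A match is a description of these letters and not a binding site. The matches are shown for the 4 of the 10 genes with the largest change at 8 h of CHIR99021, all on the plus strand, with the match in capitals.
CHAC1, chr15:40953221-40953310: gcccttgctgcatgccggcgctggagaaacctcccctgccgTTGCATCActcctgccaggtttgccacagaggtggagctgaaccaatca
ATF3, chr1:212565175-212565264: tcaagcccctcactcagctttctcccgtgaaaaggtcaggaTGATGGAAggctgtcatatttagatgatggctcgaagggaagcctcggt
GARS, chr7:30594834-30594863: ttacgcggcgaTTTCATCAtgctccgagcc
SLC3A2, chr11:62881725-62881748: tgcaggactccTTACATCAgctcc
The CHAC1 match begins 209 bases before the start of its window's transcript, the ATF3 match 191 bases before, the GARS match 33 bases before and the SLC3A2 match 37 bases after. The CHAC1 match is the narrower form and the other 3 are not.

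Within 8 h of CHIR99021 most of the 32 genes stood above their 0 h level. At that time 21 were called higher and 2 lower (adjusted p below 0.05 by edgeR's quasi-likelihood test with Benjamini-Hochberg adjustment), where 9.2% of all 24304 genes tested were called higher and 11.7% lower, 20.9% in all. Changes are fitted log2 changes from 0 h ± their standard errors, and rises are given on that scale. The median log2 change was 0.65, against -0.01 over all genes tested. SLC7A11, DDIT3, CHAC1 and ATF3 led the rise, and the only falls were those of DDIT4 and VLDLR. The calls of ALDH1L2, MTHFD2, NARS, SESN2 and YARS were each lost when some single library was left out. The summed level of the 32 genes went from 4267 and 4380 CPM at 0 h to 6098 and 6098 CPM. In 26 of the 32 genes both 8 h libraries lay above both 0 h libraries, in 4 both lay below, and in 2 the groups overlapped. That count was not made over all genes, so it only describes these libraries. By 16 h, 19 were called higher and 2 lower (6.55% and 9.34% of all genes, 15.9% in all). By 24 h, 12 were called higher and 1 lower (5.91% and 8.61%, 14.5% in all). The 4 leading rises were those of the same genes at 8 and 24 h, and the 1 fall at 24 h, of IARS, was lost when any single library of the comparison was left out.

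From 48 h of CHIR99021 the set came apart. At 48 h, 10 were called higher and 10 lower, with 15.7% of all genes higher and 18.1% lower, so the members' share of calls, 62.5%, stood against 33.9% of all genes. Higher at 48 h were ATF4, ATF3, DDIT3, CEBPG, CHAC1, SESN2, PSPH, SHMT2, SLC7A11 and SARS. Lower were ATF5, DDIT4, ASNS, PSAT1, PHGDH, SLC3A2, STC2, VLDLR, MARS and EPRS. At 72 h, 10 were called higher and 6 lower (11.5% and 13.4% of all genes, 24.9% in all), with SLC7A11, DDIT3, ATF3 and SLC7A5 the leading rises and DDIT4, STC2, VLDLR and ASNS the leading falls. Between 24 and 48 h, 5 were called higher and 13 lower (12.7% and 12.9%, 25.6% in all), but 10 in all without CHIR 24 h replicate 2. Between 8 and 24 h, 2 were called higher and 12 lower (9.05% and 9.51%, 18.6% in all), but 9 in all without CHIR 24 h replicate 1. All 8 pluripotency markers were lower at 48 h, their summed level going from 5164 and 5264 CPM at 0 h to 1812 and 1765 CPM. Primitive streak markers went from 1.76 and 2.43 CPM to 392 and 354 CPM, with 4 of 6 higher. The part of this change of state in the members' changes was not tested.

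Wnt3a at 8 h moved few of the 32 genes: 2 were called higher and 3 lower (2.28% and 1.18% of all genes, 3.45% in all), and 3 in all when the libraries in doubt, Wnt3a 0 h replicate 2 or Wnt3a 8 h replicate 2 were left out. The median log2 change was 0.02, against 0.04 over all genes. At 24 h the direction was down, with 4 called higher and 15 lower (9.32% and 10.9% of all genes, 20.2% in all), a count that fell to 10 when Wnt3a 0 h replicate 2 was left out and to 11 when Wnt3a 24 h replicate 2 was. The leading rises were those of ATF3, VLDLR, CHAC1 and SESN2, and the leading falls those of ALDH1L2, SLC7A11, PSAT1 and DDIT4. Of these, CHAC1, SESN2, ALDH1L2 and DDIT4 lost their calls without Wnt3a 0 h replicate 2. At 48 h it was up, with 15 called higher and 0 lower (7.58% and 8.56%, 16.1% in all), of which ASNS, CEBPG, MTHFD2, SARS, SLC3A2 and TRIB3 lost their calls when some single library was left out. The summed level of the set was 3512 and 4321 CPM at 0 h, 4218 and 4227 at 8 h, 2959 and 3081 at 24 h and 5164 and 4759 at 48 h. From 24 to 48 h, 25 were called higher and 1 lower (10% and 8.96%, 19% in all), a comparison that shares its 24 h libraries with the one above. From 8 to 24 h, 7 were called higher and 18 lower (10.8% and 15.3%, 26.1% in all), 16 in all without Wnt3a 24 h replicate 2. Of the 32 genes, 20 had their highest Wnt3a mean at 48 h, a count that was not made over all genes.

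Mitochondrial transcripts made up 7.72 and 6.86% of the Wnt3a counts at 0 h, 16.6 and 14.4% at 24 h, 10.6 and 9.93% at 48 h and 14.4 and 14.8% at 96 h. At 120 h, when 16 members were lower, the share was 8.91 and 11.6%. Primitive streak markers went from 21.4 and 18.8 CPM at 24 h to 634 and 686 CPM at 48 h. The part of either in the members' swing was not tested.

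At the later Wnt3a hours the falls were mostly among the enzymes and the tRNA genes, which made up 12 of the 14 lower members at 96 h and 13 of the 16 at 120 h. At 72 h, with 1 library, 2 were called higher and 5 lower (8.43% and 7.94% of all genes, 16.4% in all), a count that became 4 if Wnt3a 0 h replicate 2 was left out, 13 if Wnt3a 0 h replicate 1 was and 11 if all libraries in doubt were. At 96 h, 8 were called higher and 14 lower, beside 18.8% and 21% of all genes, 39.9% in all. At 120 h, 2 were called higher and 16 lower (12.2% and 15.6%, 27.9% in all), or 10 in all if Wnt3a 0 h replicate 2 was left out. DDIT3 and SLC7A5 were the rises at 120 h, the first lost without Wnt3a 0 h replicate 2 (log2 change 1.78, adjusted p = 0.073) and the second without Wnt3a 120 h replicate 1. The leading falls were those of ALDH1L2, DDIT4, PHGDH and EPRS. Endoderm markers, 4 of 4 called higher at 96 and 120 h, went from 0.97 and 0.631 CPM at 0 h to 264 and 185 CPM at 96 h, and their part in these falls was not tested.

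In the bcat arm the rise at 8 h was shared by many members and was followed by falls. At 8 h, 14 were called higher and 3 lower (10.7% and 8.01% of all genes, 18.7% in all), with a median log2 change of 0.44 against 0.05. At 16 h, 8 were called higher and 4 lower (6.23% and 4.69%, 10.9% in all), but 6 in all if the libraries in doubt were left out, 7 if bcat 0 h replicate 1 was and 5 if bcat 16 h replicate 1 was. At 24 h, 5 were called higher and 8 lower (6.87% and 5.95%, 12.8% in all), or 7 in all without bcat 0 h replicate 2 and 8 without either bcat 24 h replicate. The leading rises at 24 h were those of SLC7A11, SLC7A5, AARS and CEBPG, and the leading falls those of VLDLR, DDIT4, CHAC1 and STC2. At 48 h, 7 were called higher and 12 lower (11.1% and 10.1%, 21.3% in all). At 72 h, 5 were called higher and 18 lower (13.6% and 13.6%, 27.3% in all). By 72 h SLC7A11, ATF3, SLC7A5 and CEBPG led the rises, SLC7A5 and CEBPG with calls that single libraries ended, and DDIT4, VLDLR, ASNS and ATF5 the falls. The step from 8 to 24 h held the turn, with 2 called higher and 19 lower (5.56% and 6.57%, 12.1% in all). From 24 to 48 h, 2 were called higher and 2 lower (4.64% and 4.36%, 9% in all), or 1 in all without bcat 48 h replicate 1. Of the 32 genes, 23 had their highest bcat mean at 8 h and 16 their lowest at 72 h, counts that were not made over all genes. Summed, the members stood at 3925 and 4342 CPM at 0 h, 4959 and 4859 at 8 h and 2882 and 2582 at 72 h. All 8 pluripotency markers were lower at 72 h, summing to 4759 and 5365 CPM at 0 h and 2135 and 1918 CPM at 72 h, and their part in these falls was not tested.

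**Figure D1:**
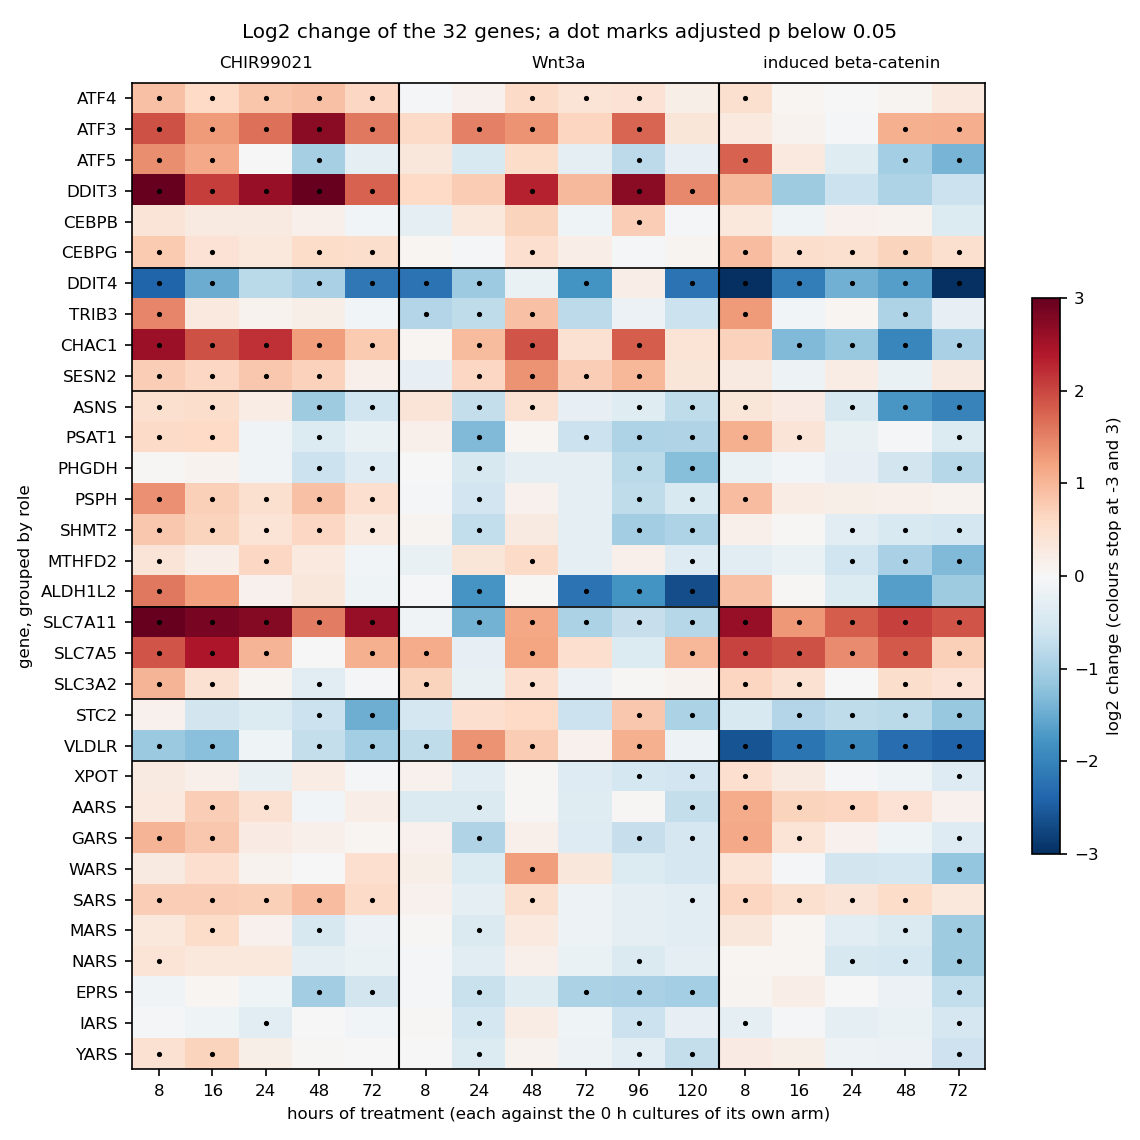
Each cell is the fitted log2 change of 1 gene (vertical axis, grouped by role) at 1 hour of treatment (horizontal axis) from the 0 h cultures of the same arm, red for higher and blue for lower, and a dot marks adjusted p below 0.05. The first CHIR99021 column holds 21 red and 2 blue dotted cells, the Wnt3a column at 24 h holds 4 and 15, and the last bcat column holds 5 and 18.

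Among the transcription factors ATF4 itself rose and stayed up with CHIR99021. Its level was 213 and 207 CPM at 0 h and 381 and 394 CPM at 8 h, then 326 and 315, 348 and 395, 394 and 381 and 334 and 316 CPM at 16, 24, 48 and 72 h. No treated library overlapped the 0 h libraries. The log2 change was 0.88 ± 0.11, adjusted p = 6.43e-07, at 8 h and 0.63 ± 0.11, adjusted p = 5.49e-05, at 72 h. With Wnt3a ATF4 stood at 205 and 231 CPM at 0 h, 209 and 210 at 8 h, 226 and 251 at 24 h and 321 and 331 at 48 h. It was first called at 48 h, with a log2 change of 0.58 ± 0.11, adjusted p = 0.000372, and at that time both libraries lay above both 0 h libraries. At 96 h the replicates parted, at 346 and 248 CPM. The change of 0.44 ± 0.11, adjusted p = 0.0021, became 0.18 (adjusted p = 0.23) without Wnt3a 96 h replicate 1. With beta-catenin induced, ATF4 rose at 8 h, from 145 and 152 to 203 and 214 CPM, a log2 change of 0.49 ± 0.11, adjusted p = 0.00239. It was back at 152 and 155 CPM at 16 h. At 72 h both libraries, at 189 and 173 CPM, again lay above both 0 h libraries without passing the test (log2 change 0.29 ± 0.12, adjusted p = 0.0641).

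ATF3, a stress-induced factor of the ATF family, and DDIT3 (CHOP), the factor linked to cell death under lasting stress, were called higher at all 5 times of CHIR99021. DDIT3 went from 1.56 and 1.54 CPM to 13.8 and 11.9 at 8 h, 8.36 and 10.5 at 24 h, 17.1 and 18.3 at 48 h and 5.3 and 5.28 at 72 h, with every treated library above both 0 h libraries. Its log2 change was 3.05 ± 0.33, adjusted p = 5.12e-08, at 8 h, 3.51 ± 0.33, adjusted p = 6.42e-10, at 48 h and 1.77 ± 0.34, adjusted p = 0.000139, at 72 h. ATF3 went from 5.93 and 9.48 CPM to 36 and 22.9 at 8 h and peaked at 56.8 and 45.9 CPM at 48 h. Both genes were higher at 48 h than at 24 h, DDIT3 by 0.89 ± 0.29, adjusted p = 0.0222, and ATF3 by 1.07 ± 0.21, adjusted p = 0.00017, while their steps from 8 to 24 h did not pass the test. The log2 change of ATF3 was 1.92 ± 0.22, adjusted p = 9.68e-08, at 8 h and 2.72 ± 0.22, adjusted p = 1.94e-11, at 48 h.

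With Wnt3a neither of the pair was called at 8 h. DDIT3 stood at 1.94 and 2.55 CPM at 0 h, 4.09 and 4.22 at 24 h, 14.2 and 10.2 at 48 h and 4.82 at 72 h. The value of 1.94 CPM rested on 6 counts. The log2 change at 48 h was 2.30 ± 0.35, adjusted p = 1.09e-05. At 96 h its libraries read 24.7 and 7.42 CPM. The log2 change of 2.72 ± 0.34, adjusted p = 2.1e-07, was 1.60 without the first of them and 3.32 without the second. ATF3 was already higher at 24 h, with 14.1 and 14.4 CPM against 3.88 and 5.31 CPM at 0 h and a log2 change of 1.50 ± 0.25, adjusted p = 4.37e-05. Both DDIT3 libraries at 48 h lay above all those at 0, 24 and 72 h, and at 96 h the libraries lay far apart. DDIT3 in the bcat arm was 3.82 and 4.39 CPM at 0 h, 7.45 and 9.24 at 8 h and 2.08 and 1.81 at 16 h, and none of the 5 changes was called (log2 change 0.98 ± 0.36, adjusted p = 0.0556, at 8 h). ATF3 was called higher there at 48 and 72 h, at 26.7 and 18.9 and 26.9 and 20 CPM from 10.3 and 11.6 CPM, a log2 change of 1.09 ± 0.24, adjusted p = 0.000928, at 72 h. DDIT3 shares 355 exon bases on the opposite strand with MARS, whose counts were 2950% of those of DDIT3, and 58 with MBD6, at 77.3%, in GENCODE release 29. The counting's use of strand is not given in the sources used here. ATF5 likewise shares 626 exon bases with NUP62, whose counts were 958% of those of ATF5, and ALDH1L2 shares 145 with C12orf45, at 1090%. YARS shares 396 with S100PBP, at 31.8%. Values of these genes are uncertain to that extent. MARS itself went from 178.3 and 185 to 232.5 and 218.9 CPM at 8 h of CHIR99021. Its log2 change was 0.31 ± 0.13 (adjusted p = 0.0971), and that of DDIT3 was 3.05 ± 0.33. The part of reads from overlapping genes in the values of DDIT3, ATF5, ALDH1L2 and YARS was not tested.

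**Figure D2:**
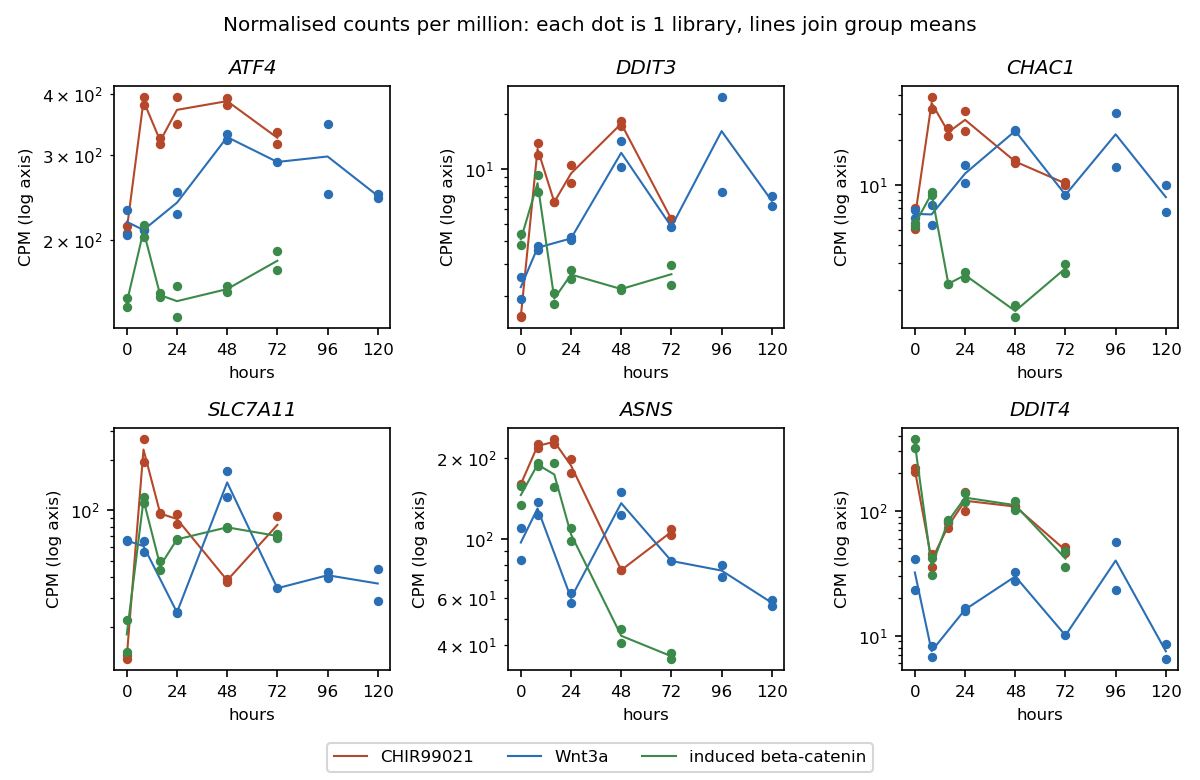
CPM on a log axis (vertical) against hours (horizontal) for ATF4, DDIT3, CHAC1, SLC7A11, ASNS and DDIT4, each dot 1 library and each line joining group means. DDIT3 and CHAC1 rise with CHIR99021 at 8 h and with Wnt3a at 48 h, and the 2 Wnt3a libraries at 96 h lie apart (DDIT3 at 24.7 and 7.42 CPM).

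ATF5, a factor of mitochondrial stress that is controlled much like ATF4, rose early and then fell below its start. With CHIR99021 it went from 6.69 and 6.69 CPM to 18.7 and 16.7 at 8 h, 6.07 and 6.99 at 24 h and 3.61 and 3.1 at 48 h. Its log2 change was 1.40 ± 0.25, adjusted p = 8.8e-05, at 8 h and -0.99 ± 0.26, adjusted p = 0.00393, at 48 h. The course in the bcat arm was similar, from 6.76 and 6.85 CPM to 27 and 19.4 at 8 h and 2.53 and 2.64 at 72 h, with log2 changes of 1.78 ± 0.28, adjusted p = 2.47e-05, and -1.40 ± 0.33, adjusted p = 0.00159. CEBPG, a C/EBP partner of ATF4, rose at 8 h in the CHIR99021 arm by 0.78 ± 0.13, adjusted p = 3.36e-05, and in the bcat arm by 0.92 ± 0.14, adjusted p = 1.21e-05. It was called at all 5 times of that arm, from 34.1 and 40.1 CPM at 0 h to 70.3 and 72.2 at 8 h, although the calls after 8 h were each lost when single libraries were left out. CEBPB, another C/EBP factor, was called in 1 of the 16 changes, at Wnt3a 96 h (log2 change 0.74 ± 0.26, adjusted p = 0.0208), and not there without either 0 h library or without the first 96 h library.

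The brakes did not move as a block. CHAC1, which degrades the antioxidant glutathione, rose with CHIR99021 and Wnt3a and fell in the bcat arm. With CHIR99021 it went from 6.99 and 5.06 CPM to 38.7 and 32 at 8 h and came down through 23.1 and 31.4 at 24 h and 13.9 and 14.7 at 48 h to 9.93 and 10.6 at 72 h. Every treated library lay above both 0 h libraries, and the log2 change at 8 h was 2.57 ± 0.26, adjusted p = 1.48e-08. With Wnt3a CHAC1 was 6.79 and 6.03 CPM at 0 h, 5.41 and 7.31 at 8 h and 23.2 and 22.8 at 48 h, a log2 change at 48 h of 1.88 ± 0.28, adjusted p = 9.35e-06. At 96 h its libraries read 30.4 and 13.2 CPM. The change of 1.81 ± 0.28, adjusted p = 4.76e-06, was 1.08 without the first. CHAC1 in the bcat arm was 5.59 and 5.35 CPM at 0 h, 8.98 and 8.55 at 8 h, 2.18 and 2.19 at 16 h and 1.31 and 1.57 at 48 h. There the 8 h libraries lay above both 0 h libraries without passing the test (log2 change 0.69 ± 0.32, adjusted p = 0.131), and from 16 h every library lay below both. The fall at 48 h was -1.95 ± 0.40, adjusted p = 0.0005, and those at 16, 24 and 72 h lost their calls without the libraries in doubt, without bcat 0 h replicate 2 and without other single libraries.

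TRIB3, a pseudokinase that holds back ATF4 and AKT, rose briefly with CHIR99021 and in the bcat arm. It went from 7.74 and 7.94 CPM to 21.2 and 21.9 at 8 h of CHIR99021 and was at 9.82 and 9.33 CPM by 16 h, with a log2 change at 8 h of 1.46 ± 0.24, adjusted p = 2.83e-05. The bcat libraries went from 4.12 and 4.81 to 10.3 and 12 CPM at 8 h and were at 4.05 and 4.67 CPM at 16 h, with a log2 change at 8 h of 1.27 ± 0.29, adjusted p = 0.00204. With Wnt3a the 0 h libraries themselves were apart, at 7.76 and 15.3 CPM, and the 8 h libraries, at 6.85 and 6.97 CPM, lay below both. The call there (log2 change -0.88 ± 0.24, adjusted p = 0.0384) was lost without Wnt3a 0 h replicate 2 or without either 8 h replicate. It was also lost with only this arm in the fit or on the deposited values as they stand. At 48 h of Wnt3a TRIB3 read 27.6 and 19.2 CPM, above both 0 h libraries. Its log2 change of 0.87 was called higher, a call lost when some single library was left out. SESN2, a leucine sensor that restrains the kinase mTORC1, rose at 8 to 48 h of CHIR99021 from 22.3 and 21.3 CPM to between 31.8 and 42 CPM, with a log2 change at 8 h of 0.74 ± 0.16 (adjusted p = 0.00115, but 0.065 without CHIR 8 h replicate 1). Its call at 16 h was lost without CHIR 0 h replicate 2. With Wnt3a it reached 38.4 and 35.4 CPM at 48 h from 13.6 and 14.9 CPM, a log2 change of 1.35 ± 0.18, adjusted p = 1.46e-06. None of its 5 changes in the bcat arm was called, with levels between 8.88 and 14.8 CPM over all 12 libraries.

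DDIT4 (REDD1), another brake on mTORC1, was called lower at 8 h in all 3 arms, as TRIB3 was with Wnt3a. With CHIR99021 it fell from 220 and 206 CPM to 45.3 and 35.2 CPM at 8 h, regained 99.6 and 142 CPM at 24 h and was at 51 and 45.8 CPM at 72 h. With beta-catenin induced it fell from 318 and 378 to 41.6 and 30.4 CPM at 8 h and was at 138 and 117 CPM at 24 h and 47.4 and 35.5 CPM at 72 h. No treated library of either arm reached its 0 h levels. The log2 changes at 8 h were -2.40 ± 0.29, adjusted p = 2.8e-06, and -3.26 ± 0.30, adjusted p = 1.08e-07. With Wnt3a DDIT4 began much lower, at 23.3 and 40.9 CPM, and was at 8.33 and 6.72 CPM at 8 h. Its log2 change was -2.22 ± 0.32 (adjusted p = 0.00011, but 0.0523 without Wnt3a 0 h replicate 2). At 96 h its libraries read 56.7 and 23.3 CPM, 1 above both 0 h libraries and 1 near the lower of them.

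DDIT4 and VLDLR, the other early fall, are also known targets of hypoxia signalling. VLDLR, a lipoprotein receptor, went from 57.9 and 61 to 29.2 and 25.3 CPM at 8 h of CHIR99021, a log2 change of -1.12 ± 0.15, adjusted p = 2.75e-06. The fall in the bcat arm was from 137 and 141 to 25.2 and 20.9 CPM, and levels stayed between 23.9 and 37.3 CPM from 16 h on, all far below both 0 h libraries, with a log2 change at 8 h of -2.58 ± 0.16, adjusted p = 1.69e-12. With Wnt3a it was at 26.6 and 24.6 CPM at 8 h from 35.9 and 48.4 CPM, a log2 change of -0.77 ± 0.16 (adjusted p = 0.00285, but 0.221 without Wnt3a 0 h replicate 2). It then rose to 108 and 114 CPM at 24 h, a log2 change of 1.35 ± 0.16, adjusted p = 3.16e-07. Of 10 other hypoxia genes, 7 were lower at 8 h of CHIR99021, 3 at 8 h of Wnt3a and 8 at 8 h in the bcat arm, and none was higher. Of all genes, 11.7%, 1.18% and 8.01% were lower in these comparisons, and 9.2%, 2.28% and 10.7% higher. PFKFB4, a regulator of glycolysis, fell at 8 h in each arm, with log2 changes of -3.00 ± 0.20, adjusted p = 5.17e-12 (CHIR99021), -1.10 ± 0.20, adjusted p = 0.00078 (Wnt3a) and -2.62 ± 0.21, adjusted p = 1.67e-10 (bcat). The list summed to 852 and 807 CPM at CHIR99021 0 h and 312 and 258 CPM at 8 h, and its part in the falls of DDIT4 and VLDLR was not tested. STC2, a secreted glycoprotein of the stress response, was lower at 72 h of CHIR99021, 23.6 and 24.5 CPM from 69.9 and 63.4 CPM, a log2 change of -1.47 ± 0.23, adjusted p = 1.75e-05. STC2 in the bcat arm was called lower from 16 h on, although the calls at 16, 24 and 48 h were lost without bcat 0 h replicate 2. It stood at 25.3 and 16.4 CPM by 72 h from 41.8 and 50.3 CPM, a log2 change of -1.14 ± 0.25, adjusted p = 0.000959.

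All 3 transporters were called higher at 8 h of CHIR99021 and of the bcat arm, and SLC7A11 had the largest rise of the 32 genes in both. SLC7A11, the cystine importer that feeds glutathione synthesis, went from 12.8 and 13.6 CPM to 268 and 195 CPM at 8 h of CHIR99021, 94.6 and 82.9 at 24 h, 37.3 and 38.8 at 48 h and 71.3 and 92.3 at 72 h. All 10 treated libraries stood above both 0 h libraries. The log2 change was 4.13 ± 0.20, adjusted p = 5.82e-15, at 8 h and 2.62 ± 0.19, adjusted p = 5.52e-12, at 72 h. Induced beta-catenin took it from 14.1 and 21.9 to 110 and 120 CPM at 8 h and 72.5 and 67.9 CPM at 72 h, with log2 changes of 2.60 ± 0.21, adjusted p = 2.44e-10, and 1.89 ± 0.21, adjusted p = 2.76e-08. The Wnt3a arm started higher, at 66.6 and 65.2 CPM, and read 56.4 and 65.7 at 8 h, 24.5 and 24.3 at 24 h, 173 and 121 at 48 h and 44.2 and 28.6 at 120 h. The drop at 24 h was -1.43 ± 0.19, adjusted p = 2.28e-06, and the height at 48 h 1.15 ± 0.18, adjusted p = 2.32e-05, so its 24 h libraries lay below and its 48 h libraries above both 0 h libraries. SLC7A11 is also a known target of the oxidant sensor NRF2, and of 10 other NRF2 targets 4 were higher and none lower at 8 h of CHIR99021. The counts were 5 and 0 at 8 h in the bcat arm, and 1 and 7 at 24 h of Wnt3a. Of all genes, 9.2% were higher and 11.7% lower at 8 h of CHIR99021. The shares were 10.7% and 8.01% at 8 h in the bcat arm, and 9.32% and 10.9% at 24 h of Wnt3a. The part of the NRF2 pathway in the level of SLC7A11 was not tested.

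SLC7A5 and SLC3A2 encode the chains of the leucine transporter LAT1, and SLC3A2 also pairs with SLC7A11. SLC7A5 went from 103 and 102 CPM to 368 and 395 at 8 h of CHIR99021, 494 and 603 at 16 h and 95.7 and 112 at 48 h. Its rise of 1.90 ± 0.22, adjusted p = 1.12e-06, at 8 h was gone at 48 h (0.02 ± 0.22). At 72 h it was called higher again, at 204 and 228 CPM, a log2 change of 1.08 ± 0.22, adjusted p = 0.00059. SLC7A5 in the bcat arm went from 64.4 and 69.3 to 333 and 217 CPM at 8 h, a log2 change of 2.04 ± 0.24, adjusted p = 1.14e-06. It was called higher at all 5 times of that arm, although single libraries ended the call at 72 h. SLC7A5 was also 1 of only 2 members called higher at 8 h of Wnt3a, at 274 and 310 CPM from 128 and 141 CPM (1.11 ± 0.22, adjusted p = 0.00352), a call lost without Wnt3a 0 h replicate 1 or with only this arm in the fit. The other was SLC3A2, at 274 and 257 CPM from 139 and 190 CPM (0.67 ± 0.13, adjusted p = 0.000963), which was lost without the libraries in doubt (adjusted p = 0.0628). SLC3A2 rose at 8 h in the other arms too, by 1.01 ± 0.12, adjusted p = 4.49e-07, with CHIR99021 and by 0.65 ± 0.13, adjusted p = 0.000397, in the bcat arm. At 120 h of Wnt3a the SLC7A5 libraries parted, at 363 and 174 CPM, and its log2 change of 0.99 ± 0.22 was 0.35 without the first.

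The serine enzymes differed among themselves at 8 h and at late times. PHGDH, the first enzyme of serine synthesis, did not pass the test at 8 h in any arm, with log2 changes of 0.03 ± 0.11 (CHIR99021), 0.00 ± 0.11 (Wnt3a) and -0.19 ± 0.11 (bcat). PSAT1, the second enzyme, went from 272 and 296 to 404 and 438 CPM at 8 h of CHIR99021 and from 146 and 180 to 354 and 332 CPM in the bcat arm, log2 changes of 0.57 ± 0.12, adjusted p = 0.000468, and 1.06 ± 0.12, adjusted p = 1.21e-07. PSPH, the third, went from 24.3 and 30.5 to 71 and 70.5 CPM and from 20 and 24.7 to 42 and 44.8 CPM, log2 changes of 1.36 ± 0.15, adjusted p = 7.02e-08, and 0.93 ± 0.17, adjusted p = 0.000146. Thus the entry enzyme was not called at 8 h while the other 2 steps were called higher in 2 arms. With Wnt3a none of the 7 enzymes was called by edgeR at 8 h (1 had an unadjusted p below 0.05, and DESeq2 called 1), beside 3.45% of all genes. At 24 h 6 were lower, beside 10.9% of all genes. PSAT1 then read 130 and 133 CPM against 301 and 353 CPM at 0 h, a log2 change of -1.32 ± 0.12, adjusted p = 1.8e-09, and it was back at 368 and 317 CPM at 48 h. At 120 h all 7 were called lower, beside 15.6% of all genes. PHGDH was then at 97.9 and 110 CPM against 224 and 278 CPM, a log2 change of -1.28 ± 0.11, adjusted p = 1.58e-10. PSPH stayed higher with CHIR99021, where it was called at all 5 times (log2 change 0.51 ± 0.15, adjusted p = 0.012, at 72 h), and was not called at 72 h in the bcat arm (0.10 ± 0.17, adjusted p = 0.734). PSAT1 was not called at 72 h of CHIR99021 (-0.20 ± 0.12, adjusted p = 0.239). PHGDH in the bcat arm was at 214 and 210 CPM at 72 h against 365 and 399 CPM, a log2 change of -0.85 ± 0.11, adjusted p = 3.22e-07.

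ASNS, asparagine synthetase and a classical ATF4 target, rose a little and then fell a great deal. With CHIR99021 it was 160 and 159 CPM at 0 h, 217 and 225 at 8 h, 176 and 198 at 24 h and 76.5 and 76.1 at 48 h. Its log2 change was 0.47 ± 0.12, adjusted p = 0.0048, at 8 h and -1.06 ± 0.12, adjusted p = 3.48e-08, at 48 h. At 48 h, therefore, ASNS lay below its start while ATF4, DDIT3 and ATF3 lay above theirs. ASNS in the bcat arm went from 134 and 157 CPM through 186 and 191 at 8 h to 35.6 and 37.3 CPM at 72 h, a log2 change of -2.00 ± 0.13, adjusted p = 5.48e-13. With Wnt3a it read 83.4 and 110 CPM at 0 h, 57.4 and 62.8 at 24 h, 149 and 122 at 48 h and 59.3 and 56.1 at 120 h, so the 24 and 120 h libraries lay below both 0 h libraries.

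The mitochondrial folate enzymes differed among themselves. SHMT2, which turns serine into glycine and a one-carbon unit, rose at 8 h of CHIR99021 from 199 and 193 to 333 and 350 CPM, a log2 change of 0.80 ± 0.10, adjusted p = 3.48e-07, and did not pass in the bcat arm (0.16 ± 0.10, adjusted p = 0.307). At 96 h of Wnt3a it was at 95.3 and 88.2 CPM against 174 and 202 CPM, a log2 change of -1.04 ± 0.10, adjusted p = 1.31e-09. MTHFD2, which carries that unit onward, fell in the bcat arm from 237 and 283 CPM to 109 and 100 CPM at 72 h, a log2 change of -1.32 ± 0.14, adjusted p = 1.82e-08. Its peak with CHIR99021 was at 24 h, 331 and 367 CPM from 218 and 238 CPM, a log2 change of 0.62 ± 0.14, adjusted p = 0.00191. ALDH1L2, which oxidises one-carbon units in mitochondria, was low everywhere, at most 20.1 CPM. At 120 h of Wnt3a it was 0.852 and 0.856 CPM against 4.85 and 5.65 CPM, and its log2 change of -2.66 ± 0.59 had adjusted p = 0.00132, but 0.0787 without Wnt3a 0 h replicate 2. Its libraries at 48 h of Wnt3a lay far apart, at 10.4 and 1.94 CPM.

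**Figure D3:**
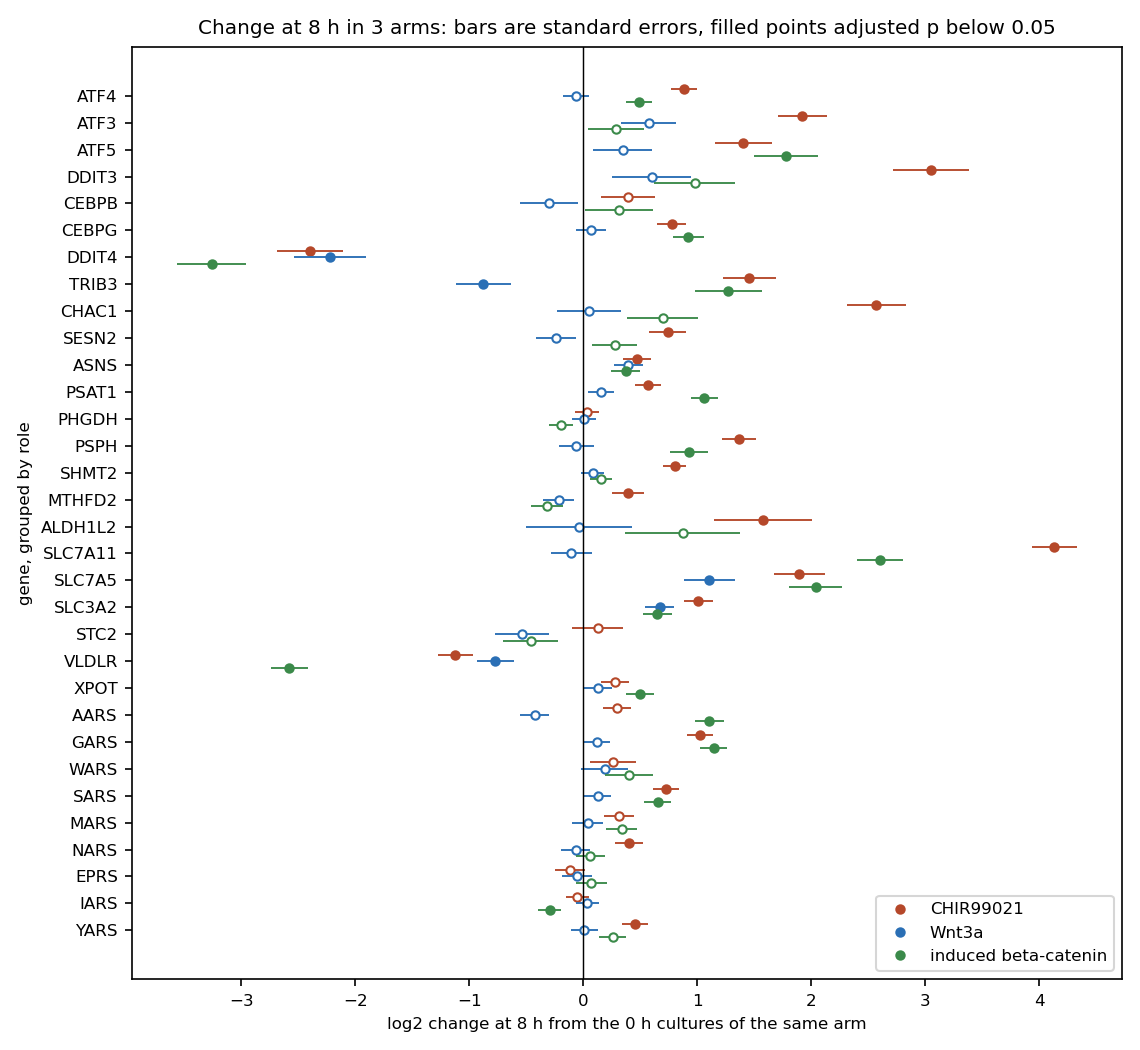
Fitted log2 change at 8 h (horizontal axis) of each gene (vertical axis) in the 3 arms, with standard errors as bars and filled points for adjusted p below 0.05. SLC7A11 is furthest right with CHIR99021 at 4.13 ± 0.20, DDIT4 furthest left in the bcat arm at -3.26 ± 0.30, and most Wnt3a points are open and near 0.

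The tRNA genes moved in part. Of XPOT, which exports tRNAs from the nucleus, and the 9 synthetases, 4 were called higher and none lower at 8 h of CHIR99021 (9.2% and 11.7% of all genes). None was called at 8 h of Wnt3a by edgeR (1 had an unadjusted p below 0.05, and DESeq2 called 1), beside 3.45% of all genes. At 8 h in the bcat arm 4 were called higher and 1 lower (10.7% and 8.01%). GARS, which charges glycine tRNA, went from 152 and 156 to 324 and 302 CPM with CHIR99021 and from 138 and 142 to 317 and 300 CPM in the bcat arm, log2 changes of 1.02 ± 0.11, adjusted p = 9.02e-08, and 1.14 ± 0.12, adjusted p = 2.69e-08. SARS, which charges serine tRNA, rose in both arms and stayed up at all 5 times of CHIR99021, from 92.4 and 95.1 CPM to 147 and 164 at 8 h and 178 and 177 at 48 h, a log2 change of 0.92 ± 0.12, adjusted p = 1.77e-07, at 48 h. AARS, for alanine, rose in the bcat arm, from 107 and 107 to 224 and 236 CPM, a log2 change of 1.11 ± 0.13, adjusted p = 2.93e-07, and was not called at 8 h of CHIR99021 (0.30 ± 0.12, adjusted p = 0.0934). XPOT rose at 8 h in the bcat arm, at 318 and 325 CPM against 229 and 226 CPM, a log2 change of 0.50 ± 0.13, adjusted p = 0.00491. At 8 h of CHIR99021 XPOT was at 348 and 323 CPM from 285 and 270 CPM, above both 0 h libraries but not called (0.27 ± 0.12, adjusted p = 0.119), and the difference between those arms did not pass the test (-0.22 ± 0.18, adjusted p = 0.609). NARS (asparagine) and YARS (tyrosine) rose at 8 h of CHIR99021 by 0.40 ± 0.12 and 0.45 ± 0.12, the first call lost without any 1 of the 4 libraries compared and the second without CHIR 0 h replicate 1 or CHIR 8 h replicate 2. EPRS (glutamate and proline) and MARS (methionine) were not called at 8 h in any arm, and IARS (isoleucine) was called only in the bcat arm, at -0.29, a call lost in 5 of the alternatives.

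WARS, for tryptophan, stood out at 1 time. It read 92.8 and 128 CPM at Wnt3a 0 h, 84 and 85.5 at 24 h and 276 and 258 CPM at 48 h, and it was back at 83.4 and 85.1 CPM at 96 h. Both 48 h libraries were above every other library of the arm, and the log2 change was 1.24 ± 0.21, adjusted p = 8.45e-05. At late times many of the 10 tRNA genes were lower in the Wnt3a and bcat arms. With CHIR99021 1 was called higher and 2 lower at 48 h (15.7% and 18.1% of all genes). At 72 h of CHIR99021 1 was called higher and 1 lower (11.5% and 13.4%). With Wnt3a 6 of the 10 were called lower at each of 24, 96 and 120 h and none higher, XPOT among them at 96 and 120 h. The share of all genes called lower differed between these hours, at 10.9%, 21% and 15.6%. At 72 h in the bcat arm 8 of the 10, XPOT and 7 synthetases, were called lower and none higher, beside 13.6% of all genes in each direction. NARS was then at 137 and 101 CPM against 238 and 259 CPM, a log2 change of -1.06 ± 0.13, adjusted p = 1.55e-07, and MARS at 100 and 87.4 CPM against 182 and 209 CPM, a log2 change of -1.06 ± 0.14, adjusted p = 5.76e-07. EPRS fell at 48 h of CHIR99021, from 286 and 300 to 139 and 144 CPM, a log2 change of -1.05 ± 0.13, adjusted p = 1.7e-07, while SARS rose.

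**Figure D4:**
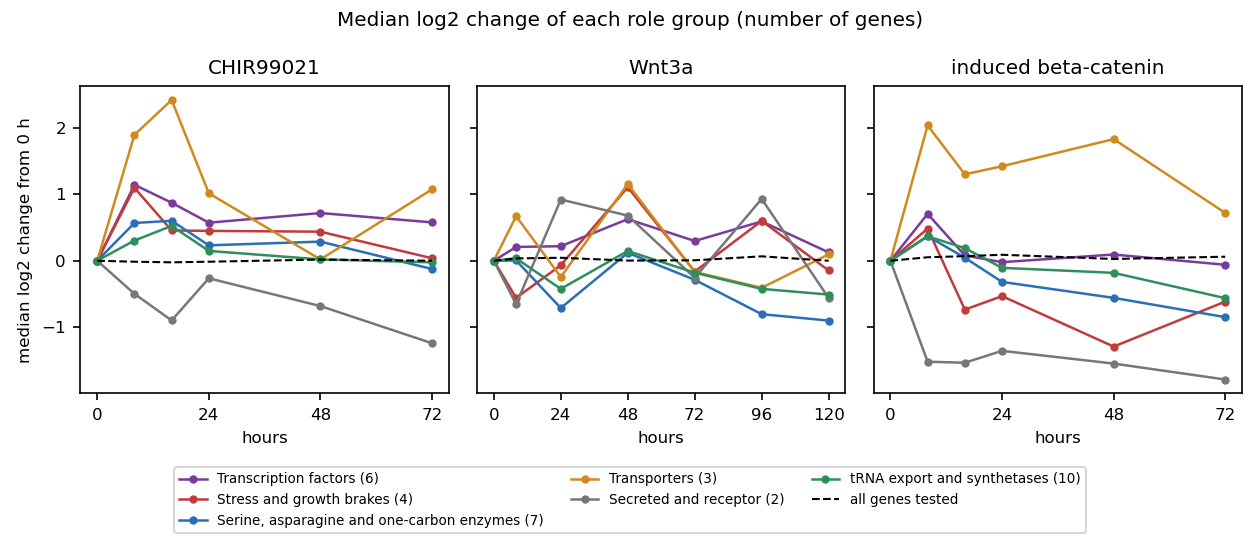
Median log2 change from 0 h (vertical axis) of each role group over hours (horizontal axis) in the 3 arms, with all genes tested as a dashed line. At 8 h the transporters stand at 1.90 with CHIR99021 and 2.04 in the bcat arm, and at 72 h in the bcat arm the enzymes are at -0.85 and the tRNA genes at -0.56.

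The arms did not start from the same levels. At 0 h, with all cultures untreated, 6 were called higher and 3 lower in the CHIR99021 arm relative to the Wnt3a arm (6.75% and 4.12% of all genes, 10.9% in all), and 2 called higher and 5 lower in the bcat arm relative to the CHIR99021 arm (6.06% and 9.6%, 15.7% in all). DDIT4 was higher in the CHIR99021 arm than in the Wnt3a arm, with a log2 difference of 2.62 ± 0.30, adjusted p = 7.35e-06, and SLC7A11 was lower, with a log2 difference of -2.32 ± 0.19, adjusted p = 3.72e-09. ATF4 was lower in the bcat line than in the CHIR99021 arm, with a log2 difference of -0.50 ± 0.11, adjusted p = 0.00234, PSAT1 was lower, with a log2 difference of -0.79 ± 0.12, adjusted p = 1.54e-05, and VLDLR was higher, with a log2 difference of 1.23 ± 0.16, adjusted p = 1.2e-06. Mitochondrial transcripts were 0.369 to 1.55% of counts in all bcat libraries and 6.77 to 16.6% in the other arms, and the part of this in these levels was not tested. Of the 10 hypoxia genes, 9 were higher at 0 h in the CHIR99021 arm than in the Wnt3a arm and none was lower, and their part in the level of DDIT4 was not tested either. Because the starts differed, each contrast between arms below sets the change since 0 h of 1 arm against that of the other.

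At 8 h CHIR99021 gave larger rises than Wnt3a in a part of the set. In this contrast 13 were called higher and 0 lower (CHIR99021 minus Wnt3a, beside 1.37% and 3.28% of all genes, 4.65% in all), a count that was 7 without Wnt3a 0 h replicate 2. They were ATF4, ATF3, DDIT3, CEBPG, TRIB3, CHAC1, SESN2, PSPH, SHMT2, SLC7A11, AARS, GARS and SARS, and ATF4 differed by 0.95 ± 0.16, adjusted p = 0.000453. For CHIR99021 minus bcat at 8 h, 7 were called higher and 1 lower (0.617% and 2.08%, 2.7% in all), among them ATF3, DDIT3, CHAC1 and SLC7A11, with AARS the 1 that rose less. That count became 3 if CHIR 8 h replicate 1 was left out, 4 if CHIR 0 h replicate 2 or bcat 0 h replicate 2 was, and 5 if the libraries in doubt were. For Wnt3a minus bcat at 8 h, 1 was called higher and 9 lower (2.62% and 2.97%, 5.6% in all), or 6 in all without Wnt3a 0 h replicate 2, and VLDLR was the 1 that was higher. The SLC7A11 rise was larger with CHIR99021 than in the bcat arm, with a log2 difference of 1.53 ± 0.27 (adjusted p = 0.00189, but 1.11 and adjusted p = 0.1 without bcat 0 h replicate 2).

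At 24 h, 14 were called higher and 1 lower for CHIR99021 minus Wnt3a (4.39% and 5.56% of all genes, 9.95% in all). There were 10 called higher and 0 lower for CHIR99021 minus bcat (1.65% and 3.3%, 4.95% in all), and 5 called higher and 9 lower for Wnt3a minus bcat (5.95% and 9.06%, 15% in all). These contrasts share their arms' libraries. At 48 h the sign against Wnt3a turned, with 2 called higher and 10 lower for CHIR99021 minus Wnt3a (6.75% and 9.35%, 16.1% in all). ASNS, PSAT1, ATF5, SLC7A5, SLC3A2, STC2, VLDLR, WARS, MARS and EPRS were the lower ones, and ATF3 and PSPH the higher. For CHIR99021 minus bcat at 48 h, 10 were called higher and 4 lower (5.97% and 10.6%, 16.5% in all). For Wnt3a minus bcat at 48 h, 16 were called higher and 1 lower (5.29% and 6.84%, 12.1% in all), or 9 in all without bcat 0 h replicate 2 or without the libraries in doubt. ASNS differed in the last contrast by 2.20 ± 0.18, adjusted p = 6.12e-10.

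Neighbouring genes of the pathway, from lists that exclude the members, are set here against the 20.9% of all genes called at 8 h of CHIR99021, 3.45% at 8 h of Wnt3a and 18.7% at 8 h in the bcat arm. Of 20 other ATF4 targets, 12 were higher and 2 lower at 8 h of CHIR99021, none was called by edgeR at 8 h of Wnt3a (1 at an unadjusted p below 0.05 and 1 by DESeq2), and 7 were higher and 2 lower at 8 h in the bcat arm. NUPR1, a stress-induced chromatin protein, rose with CHIR99021 by 3.41 ± 0.48, adjusted p = 4.28e-06, and SLC1A4, an alanine and serine transporter, by 1.98 ± 0.38, adjusted p = 0.000312, while the amino acid transporter SLC38A2 fell, with a log2 change of -0.80 ± 0.14, adjusted p = 7.16e-05. With beta-catenin induced the glutamine transporter SLC1A5 rose by 1.46 ± 0.11, adjusted p = 8.59e-11, and CTH, the enzyme that makes cysteine, fell, with a log2 change of -0.79 ± 0.22, adjusted p = 0.0112. PPP1R15A (GADD34), which restores translation by removing the phosphate from eIF2alpha, rose at 8 h of CHIR99021 by 1.16 ± 0.19, adjusted p = 3.88e-05. EIF2AK4 (GCN2), the kinase that senses uncharged tRNA, fell there, with a log2 change of -0.87 ± 0.12, adjusted p = 2.77e-06, and in the bcat arm, with -0.69 ± 0.12, adjusted p = 0.000121.

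Of 14 other cytosolic synthetase genes and partners, 3 were higher and 2 lower at 8 h of CHIR99021, and 6 and 4 at 8 h in the bcat arm. None was called at 8 h of Wnt3a by edgeR (2 at an unadjusted p below 0.05) or by DESeq2. With Wnt3a 9 were lower at 24 h and 11 at 96 h and at 120 h. Of all genes, 10.9%, 21% and 15.6% were lower at those hours. CARS, for cysteine, rose at 8 h by 1.34 ± 0.12, adjusted p = 2.39e-09, with CHIR99021 and by 1.12 ± 0.13, adjusted p = 2.24e-07, in the bcat arm. Of 17 mitochondrial synthetases, 1 was higher and 3 lower at 8 h of CHIR99021, and 3 were higher and 2 lower in the bcat arm. Those are 23.5% and 29.4% of the list, beside 20.9% and 18.7% of all genes. Of 14 chaperone and stress genes of the endoplasmic reticulum, 2 were higher and 4 lower at 8 h of CHIR99021, with HSPA5 (BiP), the main chaperone of that compartment, lower (log2 change -0.71 ± 0.13, adjusted p = 0.000201) and HERPUD1 higher (log2 change 1.28 ± 0.24, adjusted p = 0.000203). At 48 h of CHIR99021 8 of the 14 were higher and 2 lower, beside 15.7% and 18.1% of all genes, 33.9% in all. Of 6 mitochondrial stress genes, none was higher and 1 was lower at 8 h of CHIR99021, 1 higher and 1 lower at 8 h in the bcat arm, and none was called at 8 h of Wnt3a by edgeR (1 at an unadjusted p below 0.05) or by DESeq2.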

How the data were processed

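RNA of 38 H9 cultures was extracted with RNeasy and sequenced as TruSeq Stranded Total RNA, per the labels' protocols, and kallisto 0.43.0 is named in the submitters' processing notes. The sources used here do not give the genome build, the annotation or whether counting used strand. The deposited gene table holds estimated counts that the authors had multiplied by 1 constant per library (0.265 to 6.58, found from the steps between low values). These constants were divided out and the counts rounded, after which, among values of at most 20 counts, 56.8 to 81.1% per library were whole to within 0.1. Of the 43412 rows, 27 carry symbols turned into dates, none of them a member. The Wnt3a 72 h columns were identical and entered as 1 library, which leaves 37, and the spread of the lone library is assumed to be that of the other groups.

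Counts were fitted with edgeR 4.0.16 (R 4.3.3; glmQLFit with robust estimation and trended dispersions, glmQLFTest, TMM scaling, 19 group means, 18 residual degrees of freedom) on the 24304 genes left by filterByExpr. P-values were Benjamini-Hochberg adjusted over all genes within each of 33 comparisons and called below 0.05. CPM are counts scaled to the TMM-adjusted library size, and are not per gene length, so levels were not compared between genes. On simulated counts of 23788 genes, 68 of 100 genes changed 2-fold and 93 of 100 changed 4-fold were recovered for CHIR99021 at 8 h, 67 and 92 for Wnt3a, and 52 and 82 for bcat. With 2 libraries a group, the precision of each value rests on the spread shared by all groups.

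Genes leading a comparison were named at 8 h, 24 h and each arm's last time: up to 4 members per direction by log2 change, among those called whose groups do not overlap and whose higher group averages 5 CPM or more, with ATF4 always given. Neighbouring genes were named by the same rule, at most 2 per direction and list, at 8 h. Members described at 16, 48, 72 (Wnt3a) and 96 h, and others outside this rule, were chosen after their values were seen. The members and lists were chosen with earlier results of these data known. Alternatives were DESeq2 1.42.0, its size factors in edgeR, no filter on low counts, the deposited values as they stand, a replicate block, only the arms compared, no libraries in doubt, and leaving out each library. Matching rows of pseudogenes held at most 2.62% of a member's counts in any library.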

Additional observations from a re-analysis of the deposited data

Results flagged for a closer look

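A change from 0 h that differed between arms, by a test of the difference itself, was found for 27 pairs of a gene and a contrast, the 3 with the largest differences among those called in each of 9 contrasts. They are log2 differences, with p-values adjusted over all genes by edgeR's quasi-likelihood test, and contrasts of the same arm share its libraries.

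SLC7A11, the cystine importer, had risen more with CHIR99021 than with Wnt3a at 8 h by 4.24 ± 0.26, adjusted p = 2.61e-11, and at 24 h by 4.17 ± 0.27, adjusted p = 1.54e-11. For Wnt3a minus bcat its difference was -2.71 ± 0.27, adjusted p = 5.13e-07, at 8 h and -3.25 ± 0.28, adjusted p = 3.14e-09, at 24 h. The Wnt3a arm held more SLC7A11 than the others before treatment, so the test compares changes from unequal starts.

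CHAC1, the glutathione-degrading enzyme, is listed for 6 contrasts and was called in 7 of the 9. For CHIR99021 minus Wnt3a the difference at 8 h was 2.52 ± 0.38, adjusted p = 0.000106. For CHIR99021 minus bcat it was 1.87 ± 0.41, adjusted p = 0.0102, at 8 h, 3.33 ± 0.43, adjusted p = 1.09e-05, at 24 h and 3.22 ± 0.48, adjusted p = 1.11e-05, at 48 h. For Wnt3a minus bcat it was 2.08 ± 0.44, adjusted p = 0.00138, at 24 h and 3.84 ± 0.49, adjusted p = 1.59e-06, at 48 h.

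DDIT3, the death-linked factor CHOP, differed for CHIR99021 minus Wnt3a by 2.45 ± 0.47, adjusted p = 0.00193, at 8 h and 1.85 ± 0.48, adjusted p = 0.0108, at 24 h, both lost without Wnt3a 0 h replicate 2 (2.12, adjusted p = 0.174, and 1.52, adjusted p = 0.352). For CHIR99021 minus bcat it differed by 2.07 ± 0.49, adjusted p = 0.0166, at 8 h, 3.27 ± 0.51, adjusted p = 0.000151, at 24 h and 4.44 ± 0.53, adjusted p = 3.14e-07, at 48 h, and for Wnt3a minus bcat by 3.24 ± 0.54, adjusted p = 7.99e-05, at 48 h. Without the libraries in doubt the 8 h difference to bcat had adjusted p = 0.0656, and that of CHAC1 0.0632. The bcat line began with more DDIT3 than the CHIR99021 arm, by 1.43 ± 0.39, adjusted p = 0.0113. ATF3 differed for CHIR99021 minus bcat at 8 h by 1.63 ± 0.33, adjusted p = 0.00471, or 1.26 (adjusted p = 0.057) without CHIR 8 h replicate 1.

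VLDLR, the lipoprotein receptor, is listed for 6 contrasts and was called in 8 of the 9. For CHIR99021 minus Wnt3a the difference was -1.47 ± 0.22, adjusted p = 2.75e-05, at 24 h and -1.47 ± 0.22, adjusted p = 9.28e-06, at 48 h, and for CHIR99021 minus bcat it was 1.81 ± 0.22, adjusted p = 4.31e-06, at 24 h. For Wnt3a minus bcat it was 1.81 ± 0.23, adjusted p = 6.75e-06, at 8 h, 3.29 ± 0.22, adjusted p = 1.49e-11, at 24 h and 3.05 ± 0.23, adjusted p = 9.19e-11, at 48 h.

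At 48 h of CHIR99021 minus Wnt3a, ATF5 differed by -1.53 ± 0.38, adjusted p = 0.00395, and ASNS by -1.52 ± 0.18, adjusted p = 1.11e-07. SLC7A5, the leucine transporter chain, differed for CHIR99021 minus bcat at 48 h by -1.81 ± 0.32, adjusted p = 0.000246. TRIB3 differed for Wnt3a minus bcat at 8 h by -2.15 ± 0.38, adjusted p = 0.000817, or -1.44 (adjusted p = 0.0616) without Wnt3a 0 h replicate 2.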

How the results depend on the processing

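None of the 500 values called in the main fit changed direction under the alternatives run. Values not called there were outside that check. Counts of members called that moved by more than 1.5 times were as follows. Wnt3a 72 h went from 7 to 11 with DESeq2, with its size factors in edgeR or without the libraries in doubt. CHIR99021 minus Wnt3a at 8 h went from 13 to 20 with DESeq2, and CHIR99021 minus bcat at 8 h from 8 to 13 with DESeq2 and 5 without the libraries in doubt. Without those libraries Wnt3a 8 h went from 5 to 3, bcat 16 h from 12 to 6 and Wnt3a minus bcat at 48 h from 17 to 9. With only the arms compared, Wnt3a 8 h gave 3 and bcat against CHIR99021 at 0 h 11, from 7. The cause was not tested, and the last 2 settings also held fewer libraries.

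Leaving out each library in turn gave 5 to 10 at bcat 16 h, 7 to 10 at bcat 24 h, 1 to 3 for bcat 48 against 24 h, 9 to 13 for CHIR99021 24 against 8 h, 10 to 14 for CHIR99021 48 against 24 h, 3 to 8 for CHIR99021 minus bcat at 8 h, 7 to 15 for CHIR99021 minus Wnt3a at 8 h, 10 to 22 at Wnt3a 120 h, 10 to 23 at Wnt3a 24 h, 16 to 21 for Wnt3a 24 against 8 h, 4 to 13 at Wnt3a 72 h, 3 to 4 at Wnt3a 8 h, 9 to 16 for Wnt3a minus bcat at 48 h and 6 to 11 for Wnt3a minus bcat at 8 h. The other 19 counts stayed within 1.5 times.

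Replicate numbers did not pair the cultures: deviations of same-numbered libraries correlated between -0.112 and 0.153. With the replicate block all 33 counts stayed within 1.5 times (22 members at CHIR99021 8 h, from 23), and 19 of the 500 called values lost their call. Of these 500, DESeq2 ended 1, its size factors 6, the deposited values 7, no filter 30, only the arms compared 34 and leaving out the libraries in doubt 58.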
